A study of Rattus norvegicus with 12 samples.

Results

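Kidney DNA of male SHRSP rats, the stroke-prone substrain of the spontaneously hypertensive rat, was compared between matched diets at 6 weeks of age. In the LP-LP group the dam and the offspring both received a low-protein diet of 9% casein, and in the CN-CN group both received the control diet of 20% casein. The members were the 3 LP-LP and the 3 CN-CN arrays, 6 of the 12 arrays of the series. The other 6 arrays held the offspring of 9% casein dams raised on 20% casein (LP-CN, 3 arrays) or on 40% casein (LP-HP, 3 arrays), and they served as background. Strain, sex, age and organ were the same in all groups. The low-protein exposure of LP-LP was not continuous, since the methods place the dams' low-protein diet in pregnancy only, put every dam and pup on the control diet after delivery, and start the pups' own diet after separation from the dam. The labels do not say that the arrays of a group came from separate animals, so each p-value measures only the spread between these arrays.

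In mammals DNA is methylated mainly at cytosines followed by guanine. Promoters rich in such sites are usually free of methylation, and methylation of a promoter usually goes with low transcription of its gene. The methyl groups come from S-adenosylmethionine, which is made from methionine, an amino acid supplied by dietary protein. Protein restriction of the pregnant rat is a common model of the early-life programming of blood pressure, and the kidney, which sets salt and water balance, is one of its main targets. SHRSP rats develop severe hypertension and are prone to stroke.

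Methylated DNA immunoprecipitation on a promoter array (MeDIP-chip) measured the methylation. Fragments bound by an antibody to 5-methylcytosine carried Cy5 and the input DNA carried Cy3, so a higher log2(Cy5/Cy3) means more methylated DNA at a probe relative to the median probe of that array. It is not a percentage of methylated molecules. Probes whose starts lay under 1000 bp apart were joined into 16175 promoter regions, and the 16056 regions with at least 3 probes were tested. A region held a median of 10 probes and spanned a median of 1664 bp. The files pair no probe with a gene and give positions on rat build rn4, while the reference tables used here are on another build, so promoter regions are named by position and no sequence is shown. No marker of kidney cell types could be looked up for the same reason. The median input signal of chromosome X was 0.34 to 0.45 (log2) under that of the autosomes on all 12 arrays, the usual sign of male DNA.

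On the 6 arrays 86.2 to 90.8% of probes were well above background in Cy3 and 69.9 to 73.1% in Cy5. The median Cy3 signal was 148 to 165 in CN-CN and 154, 113 and 95 in LP-LP replicates 10, 11 and 12, and the median Cy5 signal was 129 to 151 in CN-CN and 119.5 to 131.5 in LP-LP. Outlier marks were less even, with 170 to 16509 marked probes per array, the highest being 9.56% of the probes of CN-CN replicate 3. The 12 arrays were read in 5 scans over 3 days. CN-CN replicates 1 and 2 shared the first scan, CN-CN replicate 3 shared the next with the LP-CN arrays, LP-LP replicate 10 shared the fourth with LP-HP replicates 8 and 9, and LP-LP replicates 11 and 12 made up the fifth. All CN-CN and LP-CN arrays were scanned on the first day and all LP-LP and LP-HP arrays on the later days. No scan or day held both LP-LP and CN-CN, so diet and scan day cannot be told apart in any difference given here.

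Promoter methylation of the matched diets was close. The mean levels of LP-LP and CN-CN correlated across the 16056 promoter regions with a Pearson r of 0.975, a description across regions and not across samples. The difference LP-LP minus CN-CN had an SD of 0.087 over regions, beside an SD of 0.38 for the levels themselves. The median size of a difference was 0.057, or 1.04-fold, and 12170 regions (75.8%) differed by less than 0.1. Differences ran from -0.43 to 0.46. They exceeded 0.3 (1.23-fold) in 19 regions, 13 of them higher and 6 lower in LP-LP, and exceeded 0.5 in 0 regions. The 95% confidence interval of the difference, from limma over all 12 arrays, lay wholly within 0.3 of 0 for 14791 regions (92.1%) and within 0.5 of 0 for 16039 regions (99.9%). That fit takes the arrays of a scan as independent, and when scan was a random block (correlation 0.533) the counts were 12566 (78.3%) and 15975 (99.5%). The value table that the authors deposited for the same arrays gave a difference of the same sign in 75.7% of the regions, and its differences correlated with those of the scanner values with r = 0.724.

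Of the 6 pairs of groups in the series, LP-LP and CN-CN had the smallest SD of promoter differences in the scanner values. For the other pairs that include 1 of these groups, the SD was 0.109 for LP-CN minus CN-CN and 0.108 for LP-HP minus LP-LP, with 3.38% and 0% of the regions past an adjusted p of 0.05 in limma. It was 0.142 for LP-HP minus CN-CN (16.8% past the threshold) and 0.143 for LP-LP minus LP-CN (19.7%). The pair that shares no array with them, LP-HP minus LP-CN, had an SD of 0.188. All but the last share arrays with LP-LP and CN-CN, and the SDs were not tested against each other.

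The likeness of single arrays overlapped within and between the diets. The r across promoter regions was 0.917, 0.919 and 0.984 for the 3 pairs within CN-CN. It was 0.910, 0.927 and 0.972 for the 3 pairs within LP-LP, and ran from 0.880 to 0.970 for the 9 pairs between them. One array in each group stood apart. CN-CN replicates 1 and 2 matched LP-LP replicates 11 and 12 with r from 0.960 to 0.970 in 4 pairs, and the 5 pairs between the diets that included CN-CN replicate 3 or LP-LP replicate 10 had r from 0.880 to 0.938. LP-LP replicate 10 was closest to the LP-HP arrays of its own scan, with r of 0.981 and 0.983. CN-CN replicate 3 reached 0.919 to 0.935 with the LP-CN arrays of its scan, about as much as with the other arrays of its group.

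**Figure D1:**
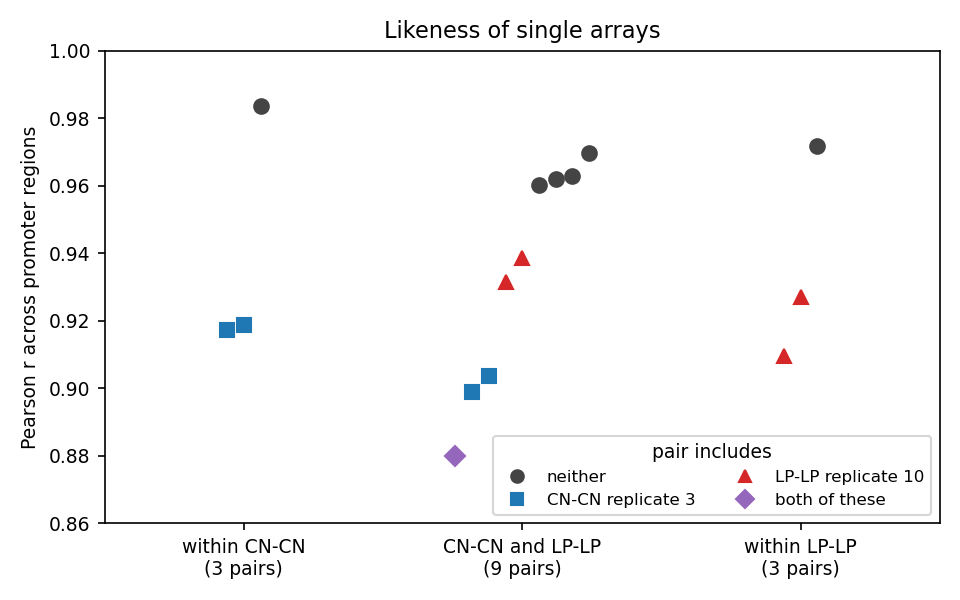
Each point is 1 pair of arrays, and the vertical axis gives the Pearson r of their levels over 16056 promoter regions (the axis starts at 0.86). Shapes show whether a pair includes CN-CN replicate 3 or LP-LP replicate 10, and all 6 pairs without them lie at 0.960 or above.

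The comparison could be made in 2 sets of arrays that share no scan. LP-LP replicates 11 and 12 minus CN-CN replicates 1 and 2 had an SD of 0.087 over promoter regions, the same as the full comparison. LP-LP replicate 10 minus CN-CN replicate 3, a single array on each side, had an SD of 0.190. The differences of the 2 sets correlated with r = 0.0148 across the 16056 regions and had the same sign in 7907 of them (49.2%).

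**Figure D2:**
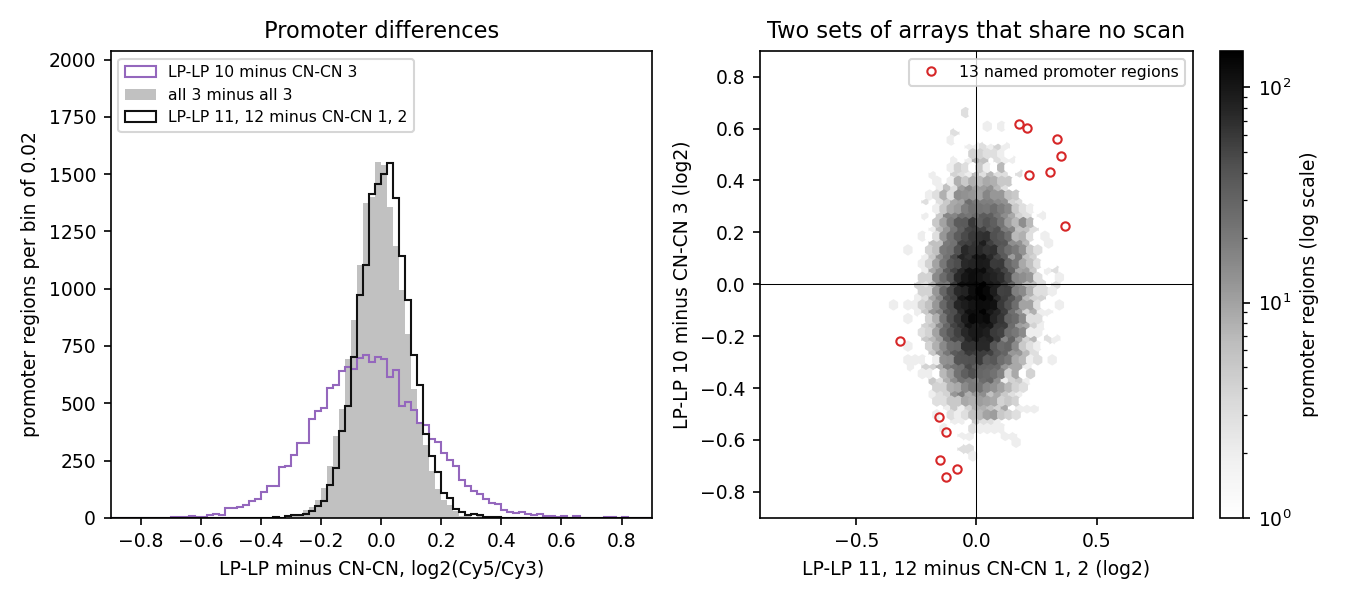
Left, the number of promoter regions (vertical axis) by their difference LP-LP minus CN-CN in log2(Cy5/Cy3), for all 6 arrays and for 2 sets of arrays that share no scan. Right, the difference in 1 set against that in the other, shaded by the number of regions. The cloud is upright with r = 0.0148, and red circles mark the 13 named promoter regions. In all of them the 6 arrays do not overlap between the groups (12 were chosen for this), which fixes their place in the upper right or lower left.

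With limma and Benjamini-Hochberg adjustment over the 16056 promoter regions, 1 region passed an adjusted p of 0.05 (0.00623% of those tested). It was higher in LP-LP. No region passed as lower. At an unadjusted p under 0.05 there were 1883 regions (11.7%), 965 higher (6.01%) and 918 lower (5.72%). The 3 LP-LP arrays did not overlap the 3 CN-CN arrays in 2206 regions (13.7%), with LP-LP above in 1190 (7.41%) and below in 1016 (6.33%). In 1083 of these the deposited value table also showed no overlap in the same direction. With 3 arrays against 3 in random order, a region separates in 1 direction or the other with a probability of 0.1. The count of calls varied with the arrays and with the processing. It was 0 without CN-CN replicate 3 alone or LP-LP replicate 10 alone and 53 (39 higher, 14 lower) without both, 840 with limma's array weights, which gave these arrays weights of 0.21 and 0.24, 47 on the deposited value table, and 0 when scan entered the fit as a random block.

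The region that passed the test lay at chr12:42696398-42696743, held 3 probes and spanned 346 bp. Its level was 0.13, 0.14 and -0.03 in the CN-CN arrays and 0.53, 0.56 and 0.38 in the LP-LP arrays. Every LP-LP array lay above every CN-CN array, with a gap larger than the spread within either group. The difference was 0.41 (SE 0.063, 95% interval 0.28 to 0.54, limma adjusted p = 0.0462), or 1.33-fold. Of its 3 probes, 2 were well above background in both channels on all 6 arrays. The differences of single probes ran from 0.07 to 0.59, all upward. The call was lost without CN-CN replicate 1, 2 or 3 or LP-LP replicate 10 or 11 (adjusted p 0.0519 to 0.214), and held without LP-LP replicate 12 (adjusted p = 0.0254). With the signals processed by the Agilent software the difference was 0.16 (adjusted p = 0.681) and the groups overlapped, and with loess within each array it was 0.21 (adjusted p = 0.282).

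Candidates were regions with at least 4 probes that separated the groups in both sets of values. At least 50% of their probes were well above background on the 6 arrays, and their unadjusted limma p was under 0.01. Of the 16056 regions tested, 230 met all of these limits, 131 higher and 99 lower in LP-LP. The p threshold alone was passed by 3.18% of all regions. These 230 regions are represented here by the 6 with the largest difference in each direction. None of the 12 passed the adjusted threshold, with limma adjusted p from 0.150 to 0.308, so they are the clearest differences of this comparison and not calls. Since they were picked for groups that do not overlap, that separation is a description.

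The largest of the higher regions, chr6:109707587-109709107 with 8 probes, stood at -0.18, -0.20 and -0.39 in CN-CN and at 0.11, 0.15 and 0.17 in LP-LP. The CN-CN arrays were all below the array median probe and the LP-LP arrays all above it. The difference was 0.40 (SE 0.071, adjusted p = 0.150), and 7 of its 8 probes were higher.

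The region chr17:15193402-15194976, with 9 probes, stood at 0.21, 0.34 and 0.07 in CN-CN and at 0.50, 0.50 and 0.66 in LP-LP. All 9 of its probes were higher in LP-LP, by 0.15 to 0.69, and 7 of the 9 were well above background throughout. The difference was 0.35 (SE 0.076, adjusted p = 0.187).

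The region chr3:137150005-137150778, with 4 probes, stood at -0.27, -0.26 and -0.55 in CN-CN and at 0.05, -0.06 and -0.05 in LP-LP. CN-CN replicate 3 was the lowest array and LP-LP replicate 10 the highest, and the difference of 0.34 (SE 0.069) was 0.21 without those 2 arrays. The region chr2:180704385-180705568, with 7 probes, showed the same order, from -0.09, -0.12 and -0.38 in CN-CN to 0.23, 0.08 and 0.06 in LP-LP. Its difference of 0.32 was 0.18 without them.

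The region chr5:165681808-165682859, with 7 probes, did not lean on those arrays. It stood at 0.05, 0.11 and 0.07 in CN-CN and at 0.29, 0.50 and 0.40 in LP-LP, a difference of 0.32 (SE 0.059, adjusted p = 0.159). In the set without CN-CN replicate 3 and LP-LP replicate 10 the difference was 0.37. The last of the higher regions, chr6:105389295-105390500 with 7 probes, stood at 0.23, 0.26 and 0.18 in CN-CN and at 0.60, 0.49 and 0.44 in LP-LP, a difference of 0.28 (SE 0.066).

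Of the lower regions, chr3:137578868-137580444 with 8 probes had the largest difference. It stood at -0.14, -0.07 and 0.42 in CN-CN and at -0.32, -0.20 and -0.27 in LP-LP. All 8 probes were lower in mean in LP-LP, the first and the last of them through CN-CN replicate 3. The difference over the region was -0.33 (SE 0.102, adjusted p = 0.270). LP-LP replicates 11 and 12 minus CN-CN replicates 1 and 2 gave -0.13, and CN-CN replicate 3 was the highest of the 6 arrays by a wide gap.

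CN-CN replicate 3 was also the highest array in the next 2 regions. At chr5:12793878-12795607, with 10 probes, the CN-CN arrays stood at -0.39, -0.43 and 0.10 and the LP-LP arrays at -0.58, -0.57 and -0.55, a difference of -0.33 (SE 0.105) that was -0.15 without CN-CN replicate 3 and LP-LP replicate 10. At chr16:19137086-19137775, with 4 probes, the levels were 0.12, 0.19 and 0.44 in CN-CN and -0.27, 0.09 and 0.05 in LP-LP. The difference of -0.29 (SE 0.10) was -0.08 without the 2 arrays, and the input signal there was higher in LP-LP by 0.39 (adjusted p = 0.0483).

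The region chr1:243857887-243859142, with 5 probes, had the lowest levels of the 13 named regions. It stood at -0.82, -0.94 and -0.83 in CN-CN and at -1.05, -1.20 and -1.19 in LP-LP. The difference was -0.28 (SE 0.071, adjusted p = 0.229), and it was -0.32 without CN-CN replicate 3 and LP-LP replicate 10.

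The region chr4:117746539-117747860, with 8 probes, stood at 0.42, 0.34 and 0.54 in CN-CN and at 0.03, 0.24 and 0.22 in LP-LP, a difference of -0.28 (SE 0.068). Its input signal was higher in LP-LP by 0.25 (adjusted p = 0.0384), and the part of the input in the ratio was not tested. The region chr8:19836628-19838155, with 7 probes, stood at 0.02, -0.09 and 0.20 in CN-CN and at -0.37, -0.15 and -0.18 in LP-LP, a difference of -0.27 (SE 0.073). All 7 of its probes were lower in mean in LP-LP, with differences from -0.77 to -0.01. Without CN-CN replicate 3 and LP-LP replicate 10 the difference was -0.16 in the region of chromosome 4 and -0.13 in that of chromosome 8.

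**Figure D3:**
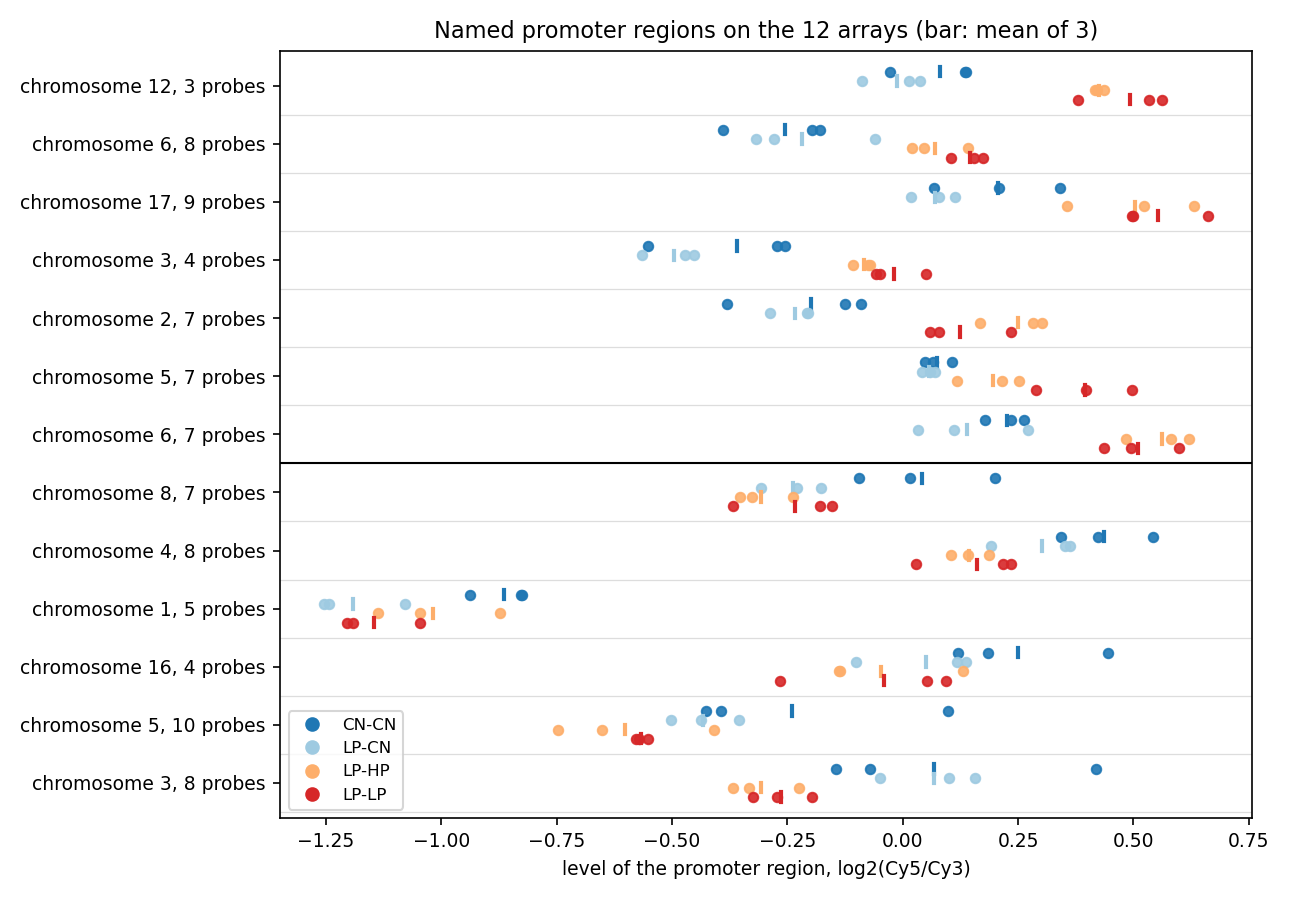
Level of the 13 named promoter regions (log2(Cy5/Cy3), horizontal axis) on each of the 12 arrays, with a short bar at the mean of 3 arrays. The 7 regions above the black line were higher and the 6 below it lower in LP-LP than in CN-CN. In each of the upper 7 all LP-HP arrays also lie above all CN-CN arrays, whose values had entered the choice of the regions. Over all promoter regions the LP-HP and CN-CN arrays did not overlap in 41.0%, counting both directions.

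The other 2 groups gave further values for these regions. Their arrays entered the choice only through the normalization and the shared estimate of the spread. LP-HP minus LP-CN shares no array with LP-LP minus CN-CN, and 38.3% of all promoter regions passed the adjusted threshold in it, 21.3% as higher and 17% as lower. Of the 7 regions higher in LP-LP, 6 were higher in LP-HP than in LP-CN past the threshold, by 0.29 to 0.48. The exception was chr5:165681808-165682859, with a difference of 0.14 (adjusted p = 0.0707). A small spread favours a small p in both comparisons, so the share over all regions is not a like base for the named regions. At chr12:42696398-42696743 the LP-HP arrays stood at 0.42, 0.44 and 0.42 and the LP-CN arrays at 0.04, 0.01 and -0.09. Both groups of offspring raised on the control diet, all scanned on the first day, thus lay below both groups raised on another diet, scanned later.

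Of the 6 regions lower in LP-LP, 1 was lower in LP-HP than in LP-CN past the threshold, chr3:137578868-137580444, by -0.38 (adjusted p = 0.00769). At chr1:243857887-243859142 the order differed. The LP-CN arrays stood at -1.08, -1.25 and -1.24, as low as LP-LP, so that the 3 groups from 9% casein dams had means of -1.02 to -1.19 against -0.86 in CN-CN. The LP-HP arrays, at -0.87, -1.05 and -1.14, overlapped the CN-CN arrays, at -0.82, -0.94 and -0.83. At chr8:19836628-19838155 the means of the 3 groups from 9% casein dams were likewise close, at -0.23 to -0.31, and that of CN-CN was 0.04. These orders were noticed after the values were seen, in regions chosen with the CN-CN values, and were not tested.

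Over all 16056 promoter regions the differences of the 2 comparisons that share no array correlated with r = 0.515. For LP-LP replicate 10 minus CN-CN replicate 3, which share their scans with LP-HP and LP-CN arrays, r was 0.665, and for LP-LP replicates 11 and 12 minus CN-CN replicates 1 and 2, which do not, it was 0.0430. Both comparisons set later scan days against the first day, and both set offspring on another diet against offspring on the control diet, so diet and day cannot be told apart here either.

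**Figure D4:**
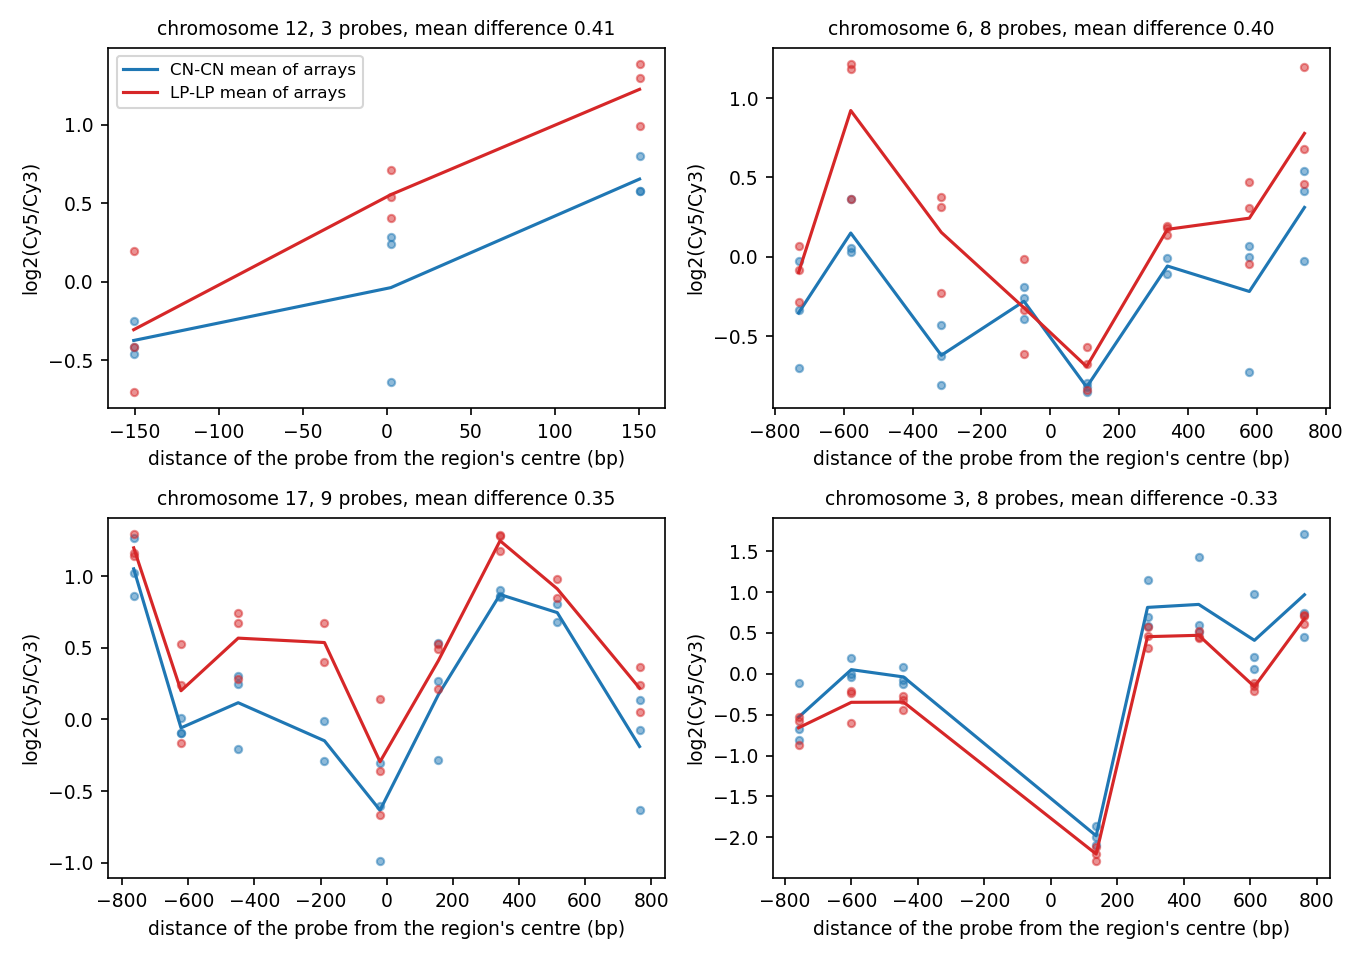
Level of each probe (log2(Cy5/Cy3), vertical axis) against its distance from the centre of the region, for 3 named regions that were higher and 1 that was lower in LP-LP. Points are the arrays that measured the probe and lines join the group means. The difference of the group means spreads over neighbouring probes in the regions of chromosome 17 (9 probes) and chromosome 3 (8 probes). At the last probe of the chromosome 3 region it came from CN-CN replicate 3, with 0.45, 0.74 and 1.71 in CN-CN and 0.72, 0.60 and 0.71 in LP-LP. The same held at its first probe, with -0.81, -0.67 and -0.11 in CN-CN and -0.57, -0.53 and -0.88 in LP-LP. In the region of chromosome 6 the difference is 0.13 or less in size at the 2 probes nearest the centre.

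Differences that cover only part of a promoter region were sought as runs of at least 3 neighbouring probes whose 6 arrays did not overlap in 1 direction. There were 94 such runs in 93 of the 16056 regions, 24 higher and 70 lower in LP-LP. Beside them, 21300 of 148560 fully measured probes (14.3%) did not overlap, and differences of neighbouring probes correlated with r = 0.0305. How many runs unrelated probes would give, in either direction, was not worked out, so the counts are a description. The longest runs had 4 probes. All 3 of these were lower in LP-LP, and 0 runs covered a whole region.

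In these runs 50% (chromosome 16), 75% (chromosome 3) and 25% (chromosome 1) of the probes were well above background in both channels on the 6 arrays. The run at chr16:51821143-51821922, over 780 bp, had mean levels of -0.77, -0.89 and -0.81 in CN-CN and of -1.23, -1.09 and -1.16 in LP-LP, a difference of -0.34. The run at chr3:137579031-137579971 lay inside the lower named region of that chromosome and differed by -0.32. The run at chr1:162590647-162591331 went from -0.35, -0.34 and -0.29 in CN-CN to -0.62, -0.52 and -0.66 in LP-LP.

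Of the higher runs, which all had 3 probes, the one with the largest difference lay at chr17:22123609-22123981 in a region of 316 probes. It went from -0.73, -0.92 and -1.01 in CN-CN to -0.21, -0.31 and -0.28 in LP-LP, a difference of 0.62, while the whole region differed by 0.04. The run at chr7:136416322-136416793 went from -0.17, -0.22 and -0.24 to 0.33, 0.46 and 0.39, a difference of 0.60. The run at chr1:81686973-81687342 went from -0.04, -0.17 and -0.24 to 0.51, 0.34 and 0.36, and all 3 of its probes were well above background on the 6 arrays, against 66.7% of those in each of the other 2 higher runs.

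At the level of single probes, 197 of 172298 (0.114%) passed an adjusted p of 0.05, 172 higher (0.0998%) and 25 lower (0.0145%) in LP-LP. The called probes stood alone. The 172 higher probes lay in 163 regions and the 25 lower probes in 25. The median difference of the higher probes was 0.96, and that of the mean of their nearest neighbours in the region was -0.01 over the 170 with a neighbour, 79 of them above 0. The lower probes had a median of -0.87, and their neighbours a median of -0.03. Over all 156494 pairs of neighbouring probes in a region, r was 0.257 for the levels and 0.0305 for the differences. The number of calls was 0 in a fit of the 6 arrays only, 4 with scan as a random block, 33 after loess, and 1587 without CN-CN replicate 3 and LP-LP replicate 10. Leaving out 1 array gave 4 calls without CN-CN replicate 1, 17 without CN-CN replicate 2, 99 without CN-CN replicate 3, 1274 without LP-LP replicate 10, 124 without LP-LP replicate 11 and 15 without LP-LP replicate 12.

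**Figure D5:**
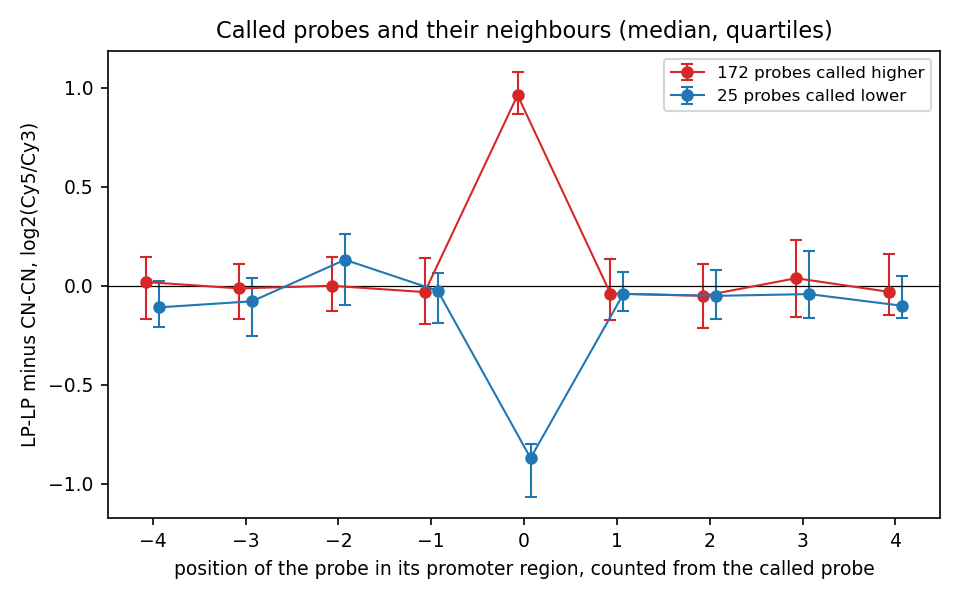
Difference LP-LP minus CN-CN (log2(Cy5/Cy3), vertical axis) of the called probes, at position 0, and of the probes up to 4 places away in the same promoter region. Points are medians and bars run from the lower to the upper quartile, and the medians of the neighbours lie between -0.11 and 0.13.

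Of the 172 higher probes, 107 were well above background in both channels on all 6 arrays and 153 had no missing spot there, and of the 25 lower probes 23 and 20. The 3 largest higher probes were well above background on all 6 arrays. The probe at chr10:28478150-28478203 stood at -1.22, -1.14 and -1.33 in CN-CN and at 0.41, 0.55 and 0.74 in LP-LP, a difference of 1.80 (SE 0.192, limma adjusted p = 0.00165). Its neighbours differed by -0.08 and its region of 33 probes by 0.03. The probe at chr7:140329551-140329606 stood at -2.12, -1.73 and -2.68 in CN-CN and at -1.23, -0.18 and -0.30 in LP-LP, a difference of 1.60 (adjusted p = 0.0190), with 0.05 at its neighbours and 0.28 over its region of 11 probes. The probe at chr11:33518898-33518957 differed by 1.56, and its region of 258 probes by 0.01.

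The largest lower probe, at chr2:227275191-227275235, stood at -0.39, -0.66 and -0.49 in CN-CN and at -3.19, -2.03 and -2.32 in LP-LP, a difference of -2.00 (SE 0.233, adjusted p = 0.00585). Its neighbours differed by -0.15 and its region of 10 probes by -0.25. The probe at chr17:29731097-29731146 stood at -0.27, -0.14 and -0.71 in CN-CN and at -2.51, -1.81 and -1.89 in LP-LP. At chr10:89044909-89044953 only LP-LP replicate 10 and CN-CN replicates 1 and 2 had a usable spot, so its difference of -1.30 rests on 3 arrays.

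The called probes also differed between the other groups, the higher ones more often than the lower ones. The medians of the 172 higher probes were -0.63 in CN-CN, -0.68 in LP-CN, 0.24 in LP-HP and 0.37 in LP-LP, and 152 of them were higher in LP-HP than in LP-CN past the adjusted threshold, which 21.7% of all probes passed in that direction. For the 25 lower probes the medians were -0.37 in CN-CN, -0.68 in LP-CN, -1.18 in LP-HP and -1.34 in LP-LP, and 12 passed as lower in LP-HP, beside 21.7% of all probes. As with the promoter regions, scan day separated the groups in the same way. LP-LP replicate 10 and CN-CN replicate 3 shared scans with LP-HP and LP-CN arrays. The LP-HP and LP-CN arrays also entered the choice of the probes through the normalization and the shared estimate of the spread. A small spread favours a call in both tests, so the share over all probes is not a like base.

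Broad classes of promoters differed by -0.03 to 0.02 in mean level. Exact permutation tests of 3 arrays against 3, two-sided, cannot go below p = 0.1, so no class could pass, and the adjusted p over the 8 classes was 0.8 to 1. Chromosome X regions (561) had a mean of 0.05 ± 0.04 in CN-CN and of 0.03 ± 0.02 in LP-LP (SD, n = 3 each). The 15396 autosomal regions had means of -0.02 ± 0.03 and -0.02 ± 0.01. Quantile normalization gives all arrays the same distribution, so a class of nearly all regions has near-equal means by construction. With median centring only, the autosomal difference was 0.031.

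The only class whose arrays did not overlap was the third of regions with the shortest probes. Probe length on this array goes from 45 to 60 bases, and the GC content that usually sets it could not be read here. Its means were 0.19, 0.20 and 0.21 in CN-CN and 0.24, 0.21 and 0.21 in LP-LP, a difference of 0.02 (exact p = 0.1, adjusted p = 0.8) that turned to -0.01 in the deposited value table. In this class of 5352 regions, 500 were higher and 121 lower in LP-LP at an unadjusted limma p under 0.05, together 11.6%. In the third with the longest probes, also 5352 regions, 144 were higher and 553 lower, together 13.02%. Over all promoter regions the share was 11.7%, with 6.01% higher and 5.72% lower. The total shares were thus close to that of all regions, and the split by direction was not tested. Mean probe length was 45 to 50.8 bases in the 7 higher named regions and 46 to 52.9 bases in the 6 lower ones.

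Across chromosomes 1 to 20 the median difference stayed between -0.02 and 0.02, and on chromosome X it was -0.03. The share of regions at an unadjusted p under 0.05 ran from 7.35% on chromosome 18 to 14.3% on chromosome 15.

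The size of a difference went with the number of probes behind it. The SD of the differences was 0.126 over the 535 regions of 3 to 5 probes, 0.0908 over the 6999 regions of 6 to 9, 0.0806 over the 8259 regions of 10 to 19 and 0.0478 over the 263 regions of 20 or more. Of the 19 regions that differed by over 0.3, 8 had under 6 probes and none had over 10. Regions over 5000 bp long numbered 206, their differences had an SD of 0.0417, and 0 of them passed the adjusted threshold.

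The input channel, which holds no immunoprecipitated DNA, differed more than the ratio. In the log2 Cy3 signal 615 promoter regions passed the adjusted threshold (3.83%), 400 higher and 215 lower in LP-LP, and 0 when scan was a random block. Between the diets the input correlated with r of 0.965 to 0.978 for the pairs of LP-LP replicates 11 and 12 with the CN-CN arrays, and with r of 0.909 to 0.930 for the pairs of LP-LP replicate 10. Input and ratio differences correlated across regions with r = -0.237. Both contain the same Cy3 signal, with opposite sign.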

How the data were processed

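Kidney DNA of SHRSP offspring had been sonicated, immunoprecipitated with an antibody to 5-methylcytosine, amplified, labelled (Cy5 for the immunoprecipitate, Cy3 for input) and hybridized to a rat RefSeq promoter array, 1 array a sample. The deposited scanner files hold the intensity of each spot in both channels, made by the authors' service with Agilent Feature Extraction 11.0.1.1 on build rn4. The authors' deposited value table holds 1 number per probe and array, in log2 units as far as the values show (Spearman 0.856 to 0.876 with the scanner ratios, medians -0.03 to 0.02), and the file states neither scale nor centring. Per the authors' methods, log2 ratios were median centred, quantile normalized and smoothed, and how replicates entered the comparison of groups is not given.

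From the median signals, background was corrected with normexp (offset 50, fitted on all spots), log2(Cy5/Cy3) was taken for the 172669 probes that are no controls, spots with an outlier mark were set missing, and arrays were median centred and quantile normalized. No smoothing was applied, since it mixes neighbouring probes. A promoter region's level is the mean of its probes, with each missing spot filled at its probe's mean over the arrays plus the array's offset in that region. Groups came from the labels. Contrasts were fitted in limma 3.58.1 (R 4.3.3) on all 12 arrays with 8 residual degrees of freedom, with Benjamini-Hochberg adjustment over all regions or probes. The number of arrays limits the precision, and the median SE of a region's difference was 0.063. Class means were compared with exact permutation tests. Scripts were tested on simulated data.

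Named promoter regions were those past an adjusted p of 0.05, and the 6 largest differences in each direction among regions with at least 4 probes, an unadjusted p under 0.01, groups that do not overlap in either source of values and at least 50% of probes well above background on the 6 arrays. Named probes were up to 3 per direction past the threshold, and named runs the 3 with the most probes per direction. The groups compared and the lists were chosen with earlier results of these data known. Lists of renal, blood pressure and cell type genes had been drawn up and were not counted, because no probe could be paired with a gene. Alternatives covered background correction, normalization, source of values, dim and marked spots, region building, array weights, the scan as a block and leaving out arrays.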

Additional observations from a re-analysis of the deposited data

How the results depend on the processing

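No scan or day held both groups, so no alternative separates diet from scan day. No paired analysis was possible because the replicate numbers of the groups are all different. The value of 1 called promoter region became 6 with no background correction, 3 with a gap of 500 bp, 47 on the deposited value table, 840 with array weights and 53 without CN-CN replicate 3 and LP-LP replicate 10 together, an alternative chosen after seeing the data. It became 0 with the Agilent processed signals, bright probes only, marked spots kept, the median of probes, a minimum of 5 probes, the 6 arrays only, scan as a random block and, also chosen after seeing the data, ratios centred within each probe length. With bright probes only or a minimum of 5 probes, the called region of 3 probes was left out of the test. Leaving out 1 array gave 0 to 1 called regions. Of the 53 regions, 52 were among the 840 (98.1% of the 53, 6.19% of the 840), and 7 among the 47 of the value table (13.2% of the 53, 14.9% of the 47). After loess the 1 region called was another one, and lower in LP-LP.

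The 197 called probes became 764 with no background correction, 727 with the Agilent processed signals, 33 after loess, 745 on the value table, 33 with bright probes, 0 with the 6 arrays, 4 with scan as a random block, 1587 without both arrays, and 4 to 1274 on leaving out 1 array. The SD of promoter differences, 0.087, was 0.149 with the Agilent processed signals and 0.135 with the median of probes, and 0.0786 to 0.104 on leaving out 1 array. The 615 regions called in the input became 1584 with median centring only and 0 with scan as a random block. With median centring only, class differences turned to 0.0019 for chromosome X, 0.031 for the autosomes, 0.030 and 0.0081 for the middle and longest probe lengths and 0.025 for the lowest levels. On the value table they turned to 0.011 for chromosome X, -0.014 for the shortest probes, and -0.0085 and -0.0016 for the middle and highest levels. The cause of these changes was not tested. None of the 13 named promoter regions changed sign in the 19 or 20 alternatives that measured them. Their separation of the groups fixed this for those that leave out arrays, for array weights and, in 12, for the value table. Limma's trend and robust moderation changes only the estimate of the spread, so the sign was fixed there too. The remaining alternatives use the same arrays from which the regions were chosen.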
